A study of Mus musculus with 6 samples.

Results

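The genes described here are 10 regulators of G protein signalling (RGS genes), Rgs9, Rgs7, Rgs6, Rgs2, Rgs3, Rgs4, Rgs8, Rgs10, Rgs12 and Rgs14, chosen by symbol among the 15939 genes of the catalogues. All 10 were listed in every library, with 71 distinct events of 128790 in the series. The tissue was nucleus accumbens of C57BL/6N mice. The morphine group had been trained in conditioned place preference with morphine, an opioid receptor agonist, and the saline group in the same procedure with saline. Each group had 3 libraries, numbered 4, 5 and 6 for morphine and 1, 2 and 3 for saline. The design gives 6 mice per group, and how they map to libraries is not stated, so p-values measure the spread between libraries, which may be technical. Age, dose and the timing of the dissection are not given in the labels.

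RGS proteins speed up the hydrolysis of GTP by G protein alpha subunits and so shorten the signal from G protein-coupled receptors. In the striatum these receptors include the mu opioid receptor and the dopamine D2 receptor, which act through inhibitory G proteins. The family is divided by domain structure. R7 members (Rgs6, Rgs7, Rgs9) carry a domain that binds the G protein beta subunit encoded by Gnb5. R4 members (Rgs2, Rgs3, Rgs4, Rgs8) are mostly small proteins built around the RGS domain. R12 members include the small Rgs10 and the large multidomain Rgs12 and Rgs14. Several of these genes make alternative transcripts that differ in their ends, and Rgs9 is known for a short form in photoreceptors and a long form enriched in the striatum.

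What was measured was transcript structure, not transcript level. Each library has a catalogue of alternative events in the transcripts assembled from it, namely first exons, last exons, skipped exons, retained introns and alternative exon ends. The unit below is the number of distinct events of a gene in a library. An event missing from a catalogue was not recorded there, which does not show that the transcript was absent. In bulk tissue, fewer cells of a type and less RNA per cell cannot be told apart.

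The sequences on which the Rgs9 results turn are the alternative coding ends of its annotated transcripts. Coordinates are on GRCm38, and the bases come from the GENCODE M21 transcripts. Rgs9 lies on the minus strand at chr11:109225355-109298129. Its 5 annotated transcripts include Rgs9-201 with 675 codons, Rgs9-204 with 484 codons and Rgs9-203 with 232 codons. The long and short forms share every coding base up to chr11:109235900, where the long form splices onward and the short form reads on in the same exon. Rgs9-203 stops further upstream, in an exon that opens at 109258699. Below, lower case marks the last 30 bases of the exon sequence before each alternative ending, and capitals mark coding bases of the ending itself. For Rgs9-201 only the first 54 coding bases of the ending are shown, at chr11:109227551-109227604, and its coding sequence runs on beyond them. The ending of Rgs9-204 is at chr11:109235846-109235899 and that of Rgs9-203 at chr11:109258658-109258699. All are written 5′ to 3′ on the minus strand.
Rgs9-201 ending: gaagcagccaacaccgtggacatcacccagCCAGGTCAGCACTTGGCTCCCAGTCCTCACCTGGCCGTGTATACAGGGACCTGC
Rgs9-204 ending: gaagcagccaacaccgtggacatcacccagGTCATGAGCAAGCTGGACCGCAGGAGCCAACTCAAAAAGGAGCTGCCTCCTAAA
Rgs9-203 ending: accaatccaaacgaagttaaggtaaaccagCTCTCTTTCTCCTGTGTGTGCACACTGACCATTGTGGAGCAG

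Rgs9, whose product limits opioid and dopamine receptor signalling in the striatum, was the 1 RGS gene of 10 in which the groups did not overlap. Its catalogues held 5, 6 and 6 events in the morphine libraries, against 4, 4 and 4 in the saline libraries. Every morphine library lay above every saline library. The means were 5.67 ± 0.577 in morphine and 4 ± 0 in saline (SD, n = 3 each), a log2 ratio of 0.45 (SE 0.08). The exact two-sided permutation test gave p = 0.1 (n = 3 per group), and 3 libraries against 3 cannot give a smaller one. With limma across 15040 genes the unadjusted p was 0.00325 and the Benjamini-Hochberg adjusted p was 0.385, so the difference was not called. Without morphine replicate 4 the ratio was 0.53 and the limma adjusted p 0.00273, where the counts were equal within both groups and 270 genes were called in all. Over all alternatives the adjusted p ran between 0.00273 and 1.

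In the whole series 1.64% of tested genes had more events in morphine without overlap and 1.43% had fewer, and a count of 1 in 10 genes is too small to be set apart from those shares. Limma called 0 of the 10 members, against 96 genes or 0.638% of those tested, and 87 of those 96 had equal counts within both groups. At an unadjusted limma p under 0.05 there were 480 genes, of which 1 was a member. The ratio was above 0 in 3 members, below 0 in 2 and at 0 in 5. The median log2 ratio was 0 over the members and 0 over all tested genes.

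**Figure D1:**
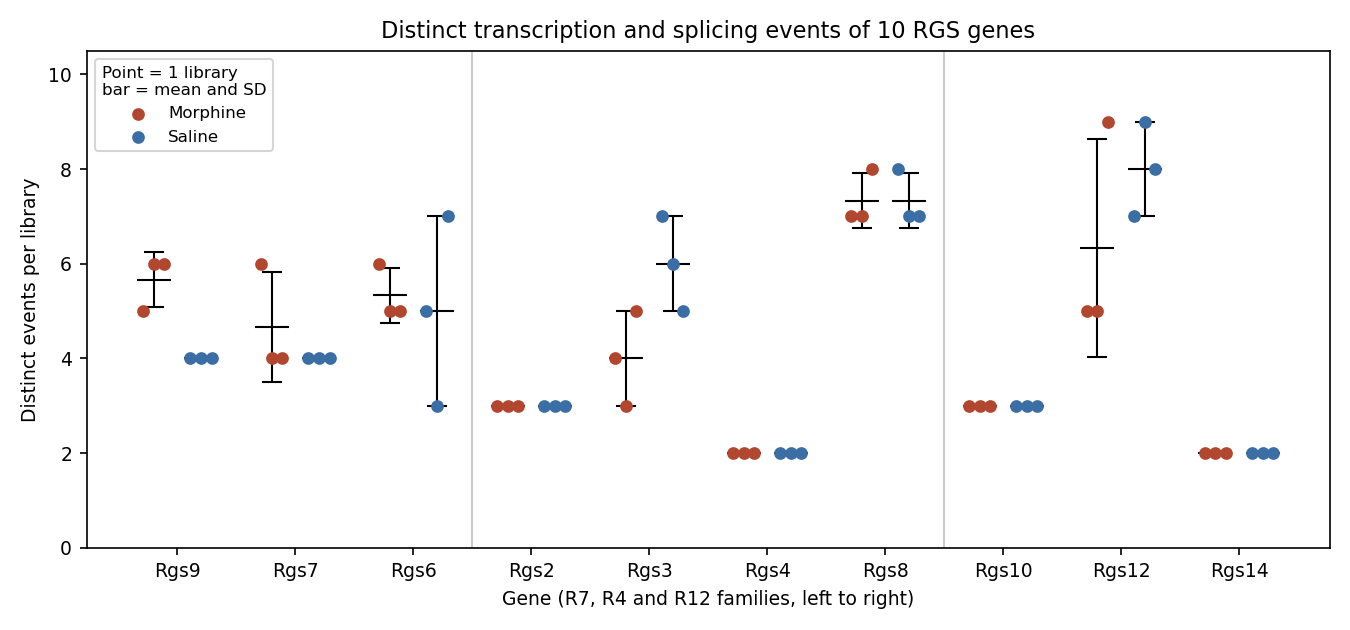
Distinct events per library (vertical axis) for the 10 RGS genes, with morphine libraries in red to the left of saline libraries in blue. Points are libraries, horizontal bars are means and error bars are SD (n = 3 each). Rgs9 lies at 5 to 6 in morphine and at 4 in saline, while 4 genes have the same count in all 6 libraries.

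The Rgs9 difference involved last exons, alternative exon ends and a retained intron that is described below. The last exon of Rgs9-203, 2698 bases at chr11:109256002-109258699, was listed in 0 of 3 morphine libraries and in 3 of 3 saline libraries. A pair of alternative exon ends was listed in 3 of 3 morphine libraries and in 0 of 3 saline libraries. The pair sets the 30-base exon at chr11:109250027-109250056, shared by the long and short forms, against an unannotated exon of 8673 bases at chr11:109250027-109258699. The splice site at 109258699 that opens both that long exon and the last exon of Rgs9-203 was present in all 6 catalogues. The stretch behind the same splice site was therefore catalogued as an exon running through to the 30-base exon in the morphine libraries and as a last exon in the saline libraries. Both alternative ends belong to this 1 difference, and with ends that share a boundary counted once Rgs9 had 4, 5 and 5 events in morphine and 4, 4 and 4 in saline (log2 ratio 0.19). The groups then overlapped. This way of counting was chosen after the data were seen.

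By class, Rgs9 had 1, 2 and 2 last exons in the morphine libraries, against 2, 3 and 3 in the saline libraries. It had 2, 2 and 2 alternative exon ends in morphine, against 0, 0 and 0 in saline. Retained introns of Rgs9 numbered 1, 1 and 1 in morphine, against 1, 0 and 0 in saline. Without the retained intron, morphine replicate 4 and saline replicates 2 and 3 would have had equal counts. Alternative exon ends without overlap and higher in morphine were found in 0.239% of tested genes. The direction of the Rgs9 ratio thus depends on which events are counted. With first and last exons alone it was -0.40, with codes of exact boundaries alone -0.12, and with annotated events alone 0, and the groups overlapped in each case. Codes beginning with X, which hold the Rgs9 exon ends, were taken as those with approximate boundaries.

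The long and short forms themselves were listed in both groups. The last exon of Rgs9-201, opening at 109225776 and 422 bases long, was in all 6 catalogues. The last exon of Rgs9-204, 961 bases at chr11:109235057-109236017, was in morphine replicates 5 and 6 and in saline replicates 2 and 3, 2 of 3 libraries in each group. Neither of these last exons therefore separated the groups. A retained intron of 8295 bases lies between the 2 exons of Rgs9-201 whose bases are printed above, at 109235900 and 109227604. The printed ending of Rgs9-204 lies within this intron. The retained intron was listed in 3 of 3 morphine libraries and in 1 of 3 saline libraries, replicate 1. Saline replicates 2 and 3 stood apart in retained introns over all genes. The morphine libraries listed 7523, 6361 and 7018, saline replicate 1 listed 7425, and saline replicates 2 and 3 listed 5074 and 5010. The part of that difference in the Rgs9 value was not tested.

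Rgs9 had 1 first exon in every library, ending at 109297938, but its outer end differed. In all 3 morphine libraries the exon was 129 bases long and began at 109298066, the annotated start of Rgs9-204. In all 3 saline libraries it was 169 bases long and began at 109298106, the annotated start of Rgs9-203. Of the 16 first exons of RGS genes listed in all 6 libraries, this 1 had outer ends that separated the groups and 12 had the same outer end throughout. Over all genes 1.12% of 12564 such first exons separated the groups. The saline libraries thus listed both annotated ends of Rgs9-203 and the morphine libraries neither, so these events are not treated as independent of each other. The catalogues list the ends as separate events, and whether the same transcript carried both was not tested. Outer ends were compared after the data were seen.

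The RefSeq promoter window nearest to these starts, on GRCm38.p6 and the minus strand, runs over chr11:109298182-109298431 for its 250 upstream bases. The letters TATAAA, in capitals, begin 195 bases before the RefSeq start.
Rgs9 upstream: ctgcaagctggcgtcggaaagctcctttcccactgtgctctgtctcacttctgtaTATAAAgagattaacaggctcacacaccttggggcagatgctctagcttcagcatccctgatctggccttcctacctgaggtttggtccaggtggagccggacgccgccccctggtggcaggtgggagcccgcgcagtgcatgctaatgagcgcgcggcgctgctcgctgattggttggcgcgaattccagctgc
TATAAA, searched on both strands, was present in 4 of 13 promoter windows of the members, in 3 genes, against 13.6% of 32851 windows of 300 bases. TGACG, letters found in sites of cyclic AMP-responsive factors, was in 4 of 13 windows in 4 genes, against 20.8% of all windows. These matches are descriptions of the sequence only, and no binding was measured.

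**Figure D2:**
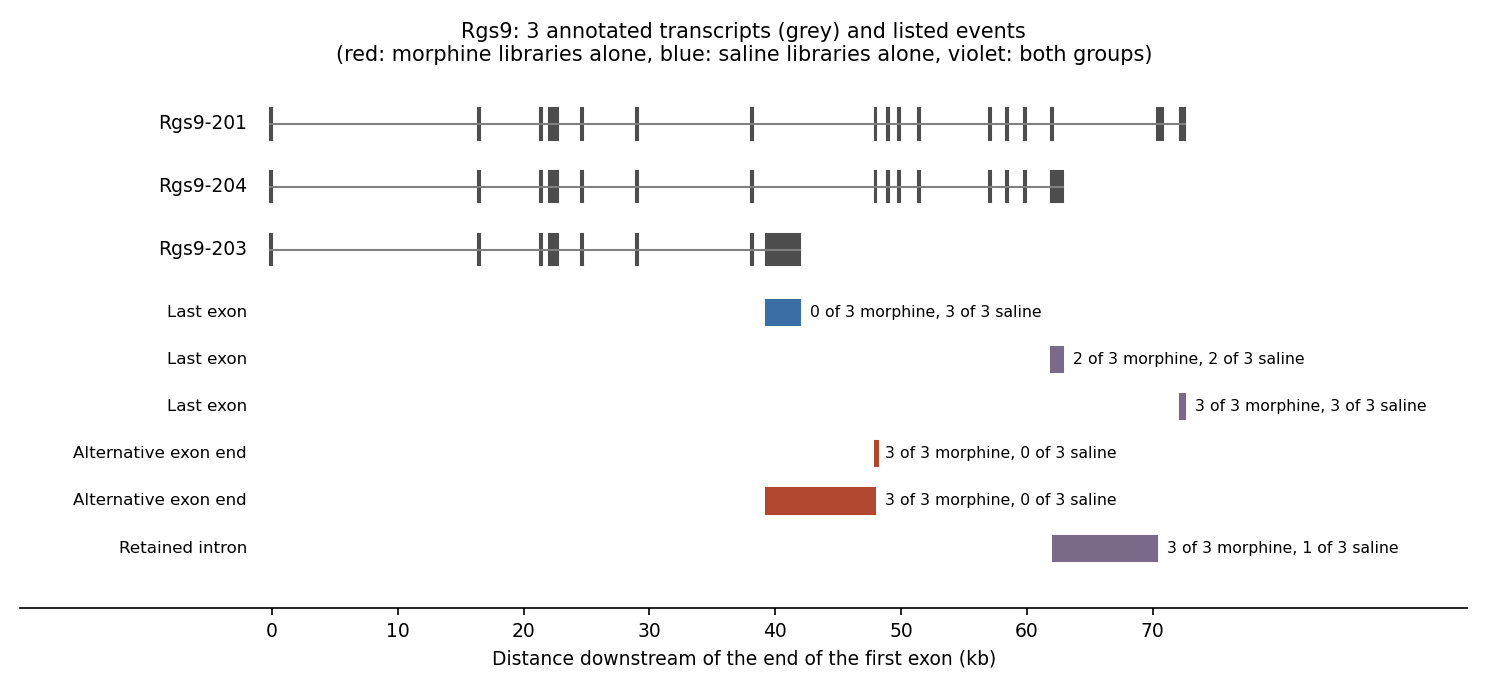
Map of Rgs9 by distance downstream of the end of its first exon (kb), with the exons of 3 annotated transcripts in grey and the listed last exons, alternative exon ends and retained intron below. The shortest exons are drawn wider than scale so that they can be seen. Red events were listed in morphine libraries alone (3 of 3), the blue last exon in saline libraries alone (3 of 3), and violet events in both groups.

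Rgs7 and Rgs6 encode the other R7 proteins, which need the Gnb5 subunit for stability and act on inhibitory G proteins at neuronal receptors. Both genes skip small cassette exons near the 3′ end, and the sequences of 4 of these are shown because the events below refer to them. Capitals mark bases that are coding in the named transcript, and lower case marks bases that are not, beginning with its stop codon. The Rgs7 exons are at chr1:175066617-175066694, chr1:175076017-175076097 and chr1:175076824-175076877 on the minus strand, and the Rgs6 exon is at chr12:83137386-83137439 on the plus strand.
Rgs7 exon of 78 bases, Rgs7-206: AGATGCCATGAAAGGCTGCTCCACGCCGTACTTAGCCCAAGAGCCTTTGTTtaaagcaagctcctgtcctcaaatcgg
Rgs7 exon of 81 bases, Rgs7-205: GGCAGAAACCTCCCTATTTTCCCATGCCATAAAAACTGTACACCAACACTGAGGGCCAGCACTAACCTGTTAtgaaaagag
Rgs7 exon of 54 bases, Rgs7-202: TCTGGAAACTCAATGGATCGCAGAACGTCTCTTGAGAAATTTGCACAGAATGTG
Rgs6 exon of 54 bases, Rgs6-203: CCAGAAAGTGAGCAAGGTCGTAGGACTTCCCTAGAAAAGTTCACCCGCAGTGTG

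Rgs7 had 6, 4 and 4 events in the morphine libraries, against 4, 4 and 4 in the saline libraries. The groups overlapped, and morphine replicate 4 alone was higher. The log2 ratio was 0.18 (SE 0.17, limma adjusted p = 0.905, exact permutation p = 1, n = 3 per group). Skipping of the 78-base exon and of the 81-base exon was listed in all 6 libraries, as were 1 first exon and 1 last exon. Morphine replicate 4 added skipping of the 54-base exon and joint skipping of 132 bases in a pair of exons. The 78-base exon and the 54-base exon make up that pair. Each of the 4 skipped lengths in Rgs7 is a multiple of 3. Aligned without gaps, the 54-base exons of the paralogs Rgs6 and Rgs7 have the same base at 29 of 54 positions (53.7%).

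Rgs6 had 6, 5 and 5 events in the morphine libraries, against 5, 3 and 7 in the saline libraries. The saline libraries enclosed the morphine range, and the log2 ratio of 0.15 (SE 0.31) was not called (limma adjusted p = 1, exact permutation p = 1, n = 3 per group). Without saline replicate 2 the ratio was -0.14. Behind this total the classes differed. Rgs6 had 2, 4 and 2 last exons in morphine, against 1, 1 and 1 in saline, and every morphine library lay above every saline library. Last exons without overlap and higher in morphine were found in 0.352% of tested genes. Rgs6 had 2, 1 and 2 first exons in morphine, against 3, 2 and 4 in saline, and these groups met at 2. The split by class was compared after the values were seen.

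The last exon that separated the groups in Rgs6 was 288 bases at chr12:83137386-83137673, listed in 3 of 3 morphine libraries and 0 of 3 saline libraries. It opens at the same splice site as the 54-base exon printed above and is the last exon of the annotated Rgs6-218. That splice site was also used in saline replicates 1 and 3, through skipping events, so the site itself did not separate the groups. The downstream last exon opening at 83157921 was in all 6 libraries. A first exon ending at 82651912, the first exon of Rgs6-201, was listed in 0 of 3 morphine libraries and 3 of 3 saline libraries. The same site appeared in morphine replicate 4 through a skipping event.

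Skipping of the 54-base exon of Rgs6 was listed in morphine replicate 4 and saline replicate 1. Joint skipping of the 54-base exon and a 67-base exon, 121 bases in all and not a multiple of 3, was listed in morphine replicate 6 and saline replicate 3. Rgs6, with 22 annotated transcripts, had 14 distinct events, with 1 common to all 6 libraries and 7 listed in 1 library. Its listed events thus varied between libraries of the same group, and over the series 50.7% of distinct events were listed in 1 library.

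The R4 genes Rgs2, Rgs4 and Rgs8 gave the same or nearly the same catalogue in every library. Rgs4, a small striatal and cortical regulator of inhibitory and Gq signalling, had 2 events in all 6 libraries, a first exon at chr1:169747480-169747642 and a last exon at chr1:169741477-169743920. Rgs2, an early-response gene whose product acts mainly on Gq, had 3 events in all 6 libraries. These were 1 first exon and a pair of last exons opening at 144001874 and 144002282. Rgs8, best known from cerebellar Purkinje cells, had 7, 7 and 8 events in the morphine libraries, against 8, 7 and 7 in the saline libraries. Both groups averaged 7.33 ± 0.577 (SD, n = 3 each), a log2 ratio of 0 (SE 0.09).

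Rgs8 held 6 listed first exons, the same number as Rgs12 and Rgs6 and 1 fewer than Rgs3. Of these, 5 were in all 6 libraries, and the 1 ending at 153661313 was in morphine replicate 6 and saline replicate 1. Skipping of a 129-base exon at chr1:153667825-153667953 was listed in all 6 libraries. Its single last exon was 7599 bases long in morphine replicate 5 and 2854 bases in the other 5 libraries.

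Rgs3, an R4 member whose long forms carry additional PDZ or C2 domains, had 4, 3 and 5 events in the morphine libraries, against 7, 6 and 5 in the saline libraries. The groups met at 5 events. The means were 4 ± 1 in morphine and 6 ± 1 in saline (SD, n = 3 each), a log2 ratio of -0.54 (SE 0.22). Limma gave an unadjusted p of 0.0607 and an adjusted p of 0.905, and the exact permutation p was 0.2 (n = 3 per group). Without morphine replicate 6 the groups no longer met and the ratio was -0.70. Without saline replicate 3 they also no longer met and the ratio was -0.66. The ratio was smaller without morphine replicate 5 (-0.37), without saline replicate 1 (-0.43) and with annotated events only (-0.39). Rgs3 was called in none of these settings, and its adjusted p lay between 0.83 and 1 over the alternatives.

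The Rgs3 difference was in first exons, with 3, 2 and 4 in the morphine libraries, against 6, 5 and 4 in the saline libraries. First exons ending at 62619787 and 62674310 were in all 6 libraries. The 5 others were each in 1 to 5 libraries and none separated the groups. The last exon varied as well. The end of Rgs3-202, opening at 62702060, was listed in morphine replicate 6 and in saline replicates 1, 2 and 3. The end of Rgs3-201, opening at 62657103, was listed in morphine replicates 4 and 5. The coding parts of both are printed here in lower case on the plus strand, at chr4:62702060-62702242 and chr4:62657103-62657207.
Rgs3-202 last exon, coding: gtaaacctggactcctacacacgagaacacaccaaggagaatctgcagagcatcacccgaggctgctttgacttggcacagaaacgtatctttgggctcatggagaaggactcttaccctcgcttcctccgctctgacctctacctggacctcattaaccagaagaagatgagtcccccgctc
Rgs3-201 last exon, coding: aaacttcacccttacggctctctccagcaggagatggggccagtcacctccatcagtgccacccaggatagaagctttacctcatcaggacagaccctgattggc

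In morphine replicates 4 and 5 the first exon ending at 62674310 lies 17207 bases beyond the opening of the only last exon listed, so a transcript that begins there cannot end in it. Those catalogues therefore did not list the last exon that goes with it. In morphine replicate 4 the first exon ending at 62699894 lies 42791 bases beyond that opening. Such first exons made up 3 of 137 listings of the RGS genes (2.19%) and 4155 of 130592 over all genes (3.18%). Whether the Rgs3 transcript itself was missing there was not tested.

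Rgs12, a multidomain R12 protein with PDZ, phosphotyrosine-binding, Ras-binding and GoLoco domains, had 5, 5 and 9 events in the morphine libraries, against 7, 9 and 8 in the saline libraries. Morphine replicate 6 reached the top of the saline range. The means were 6.33 ± 2.31 in morphine and 8 ± 1 in saline (SD, n = 3 each), a log2 ratio of -0.36 (SE 0.27, limma adjusted p = 0.905, exact permutation p = 0.4). Without morphine replicate 6 the groups did not overlap and the ratio was -0.62, with an adjusted p of 0.435. The ratio shrank to -0.10 with first and last exons only, to -0.09 without retained introns and alternative exon ends, and to -0.01 with annotated events only. Of its 17 distinct events 9 were in 1 library, among them 4 retained introns of 31 to 801 bases and 4 alternative exon ends.

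A first exon of Rgs12 ending at 34949528 was listed in 0 of 3 morphine libraries and 3 of 3 saline libraries. It is not annotated. Its neighbour ending at 34949524, the annotated first exon of Rgs12-201, is 4 bases shorter and was listed in morphine replicates 4 and 6 and in all 3 saline libraries. The first exons ending at 34989868 and 34999229 were in all 6 libraries.

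The first and last exons of Rgs12-202, the longest annotated form with 1451 codons, were listed in the same libraries. The first exon, ending at 34966755, and the last exon, opening at 35039163, were both in 3 of 3 morphine libraries and in 1 of 3 saline libraries, replicate 1. That last exon is also annotated for Rgs12-205, Rgs12-207 and Rgs12-211, and the first exons of Rgs12-205 and Rgs12-207 were in all 6 libraries. Whether full Rgs12-202 transcripts followed this division was not tested. Saline replicates 2 and 3 listed the last exon of Rgs12-201, opening at 35031871, in its place, and its splice site was also in morphine replicates 5 and 6 through exon skipping. That is the same division of libraries as for the retained intron of Rgs9 and for retained introns over all genes. Without saline replicate 1 these 4 events of Rgs9 and Rgs12 also separated the groups, and the number of such member events was 10.

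Skipping of the Rgs12 exon before the last exon of Rgs12-201 was listed in morphine replicates 5 and 6 and in saline replicates 2 and 3. The exon is 154 bases at chr5:35030468-35030621 on the plus strand, is not a multiple of 3, and is shown in capitals because all of it is coding.
Rgs12 exon of 154 bases, Rgs12-201: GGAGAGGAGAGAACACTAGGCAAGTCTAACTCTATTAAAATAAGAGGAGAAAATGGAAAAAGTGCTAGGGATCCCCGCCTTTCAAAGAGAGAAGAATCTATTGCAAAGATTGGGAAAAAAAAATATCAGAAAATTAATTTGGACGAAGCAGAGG

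Rgs10, a small R12 member abundant in microglia, had 3 events in all 6 libraries, first exons ending at 128418066 and 128418581 and 1 last exon. Rgs14, an R12 member that binds Ras-family proteins and is best known from hippocampal neurons, had 2 events in all 6 libraries. With Rgs2 and Rgs4 these make 4 of 10 members with the same count throughout, against 22.8% of tested genes.

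**Figure D3:**
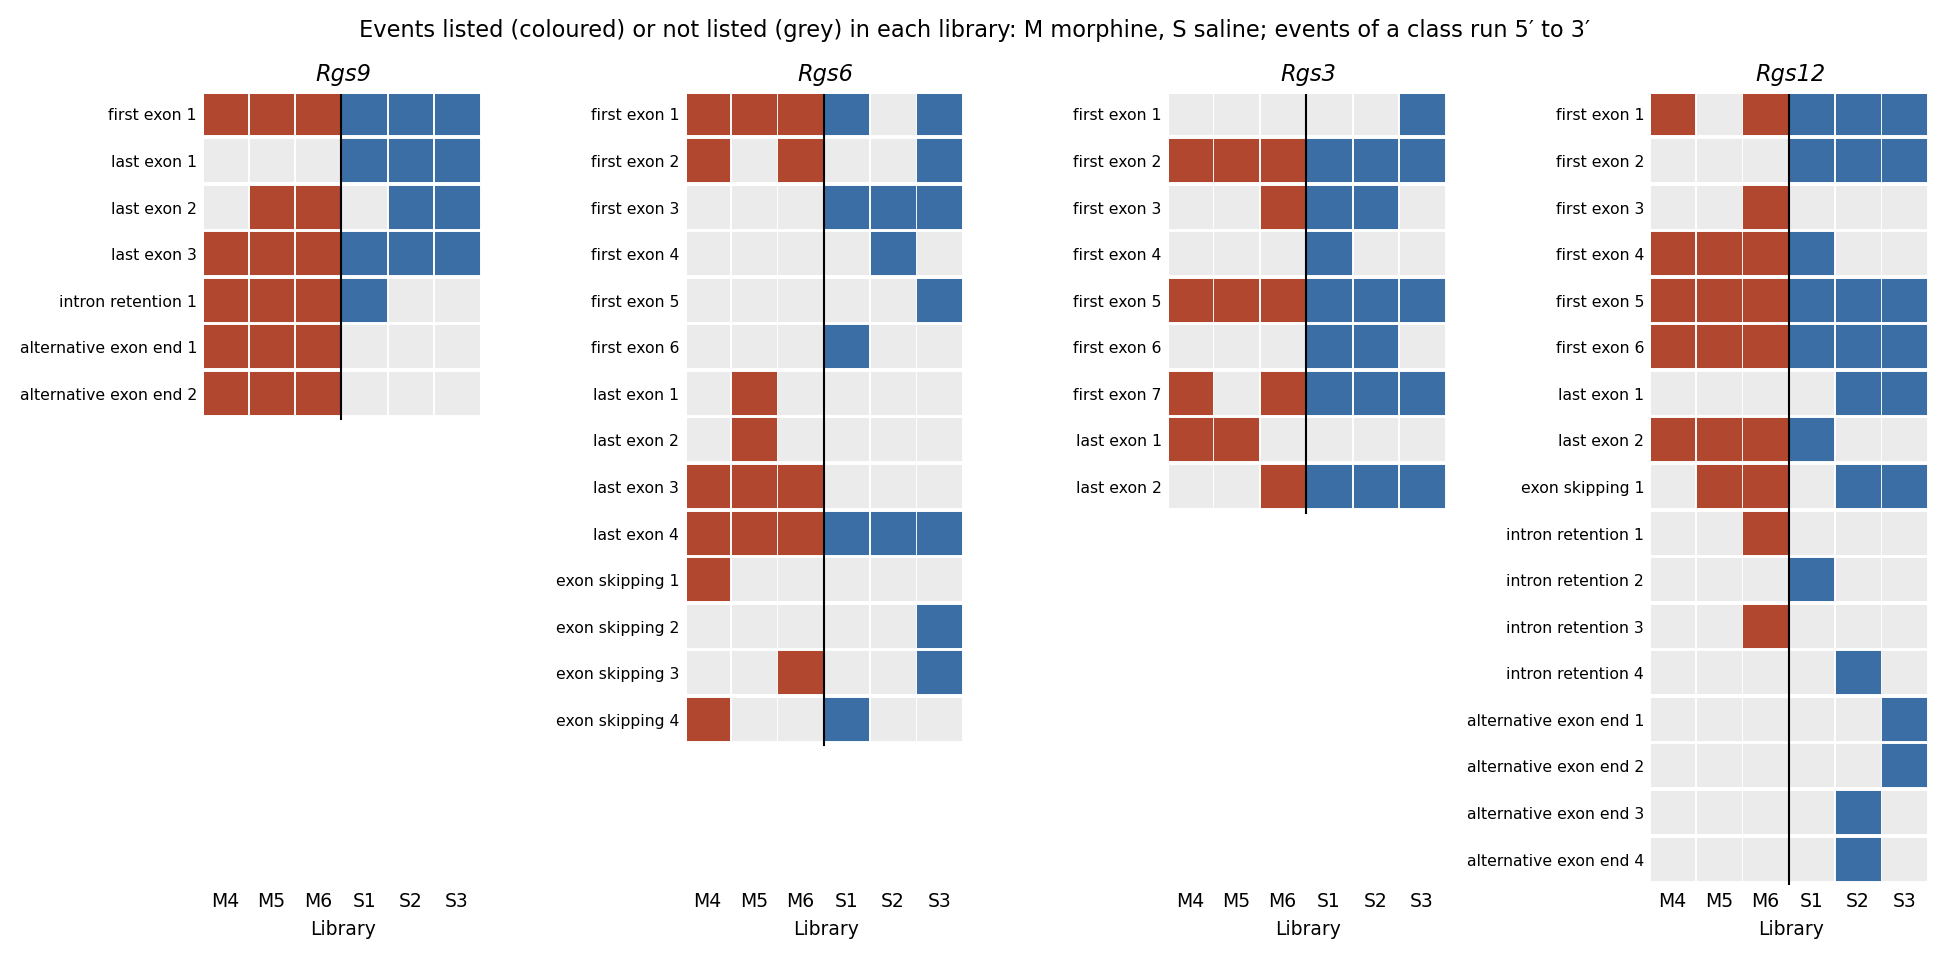
Events of Rgs9, Rgs6, Rgs3 and Rgs12 (vertical axes, by class and in 5′ to 3′ order) that were listed, in colour, or not listed, in grey, in each library (horizontal axes, morphine M4 to M6 in red left of saline S1 to S3 in blue). Rgs9 has 3 events confined to libraries of 1 group, Rgs6 has 2 and Rgs12 has 1, each in 3 of 3 libraries. Rgs3 has none.

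In all, 6 of the 71 RGS events were listed in 3 of 3 libraries of 1 group and in 0 of the other, 3 in morphine and 3 in saline, in the genes Rgs9, Rgs6 and Rgs12. Over the series 0.665% of distinct events had that pattern. Of the 8 RGS events in exactly 3 libraries, these were 6, and over the series the share among events in exactly 3 libraries was 11.0%. The 3 events of Rgs9 describe 1 difference in listed structure, and in Rgs6 both splice sites were also listed in the other group. The count of 6 is thus not a count of independent differences.

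RGS events recurred between libraries. All 6 libraries shared 28 of the 71 events (39.4%), and 20 (28.2%) came from 1 library, against 20.9% and 50.7% of all distinct events in the series. Their boundaries were those of annotated exons for 59 events (83.1%), against 63.6% in the series. By class the RGS and series shares were 87.5% and 81.8% for first exons and 94.4% and 81.9% for last exons. They were 100% and 79.3% for exon skipping, 20% and 6.23% for retained introns, and 50% and 56.7% for alternative exon ends. Retained introns made up 5 of the 71 RGS events and 24972 of the 128790 in the series. First exons made up 32 of the 71 and last exons 18, and 50% of each were in all 6 libraries, against 29.8% and 32.1% over all genes. None of the 5 retained introns and 6 alternative exon ends of RGS genes was in all 6 libraries. By mean events over the 6 libraries the order was Rgs8 (7.33), Rgs12 (7.17), Rgs6 (5.17), Rgs3 (5), Rgs9 (4.83) and Rgs7 (4.33), and the ranges of neighbours in this order overlapped. The median tested gene had 2.67 events.

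Summed over the 10 genes, the morphine libraries had 43, 40 and 47 events, against 45, 43 and 45 in the saline libraries. The means were 43.3 ± 3.51 in morphine and 44.3 ± 1.15 in saline (SD, n = 3 each), and the groups overlapped. First exons numbered 21, 18 and 24 in morphine, against 27, 23 and 24 in saline. Last exons numbered 12, 15 and 13 in morphine, against 12, 13 and 13 in saline.

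**Figure D4:**
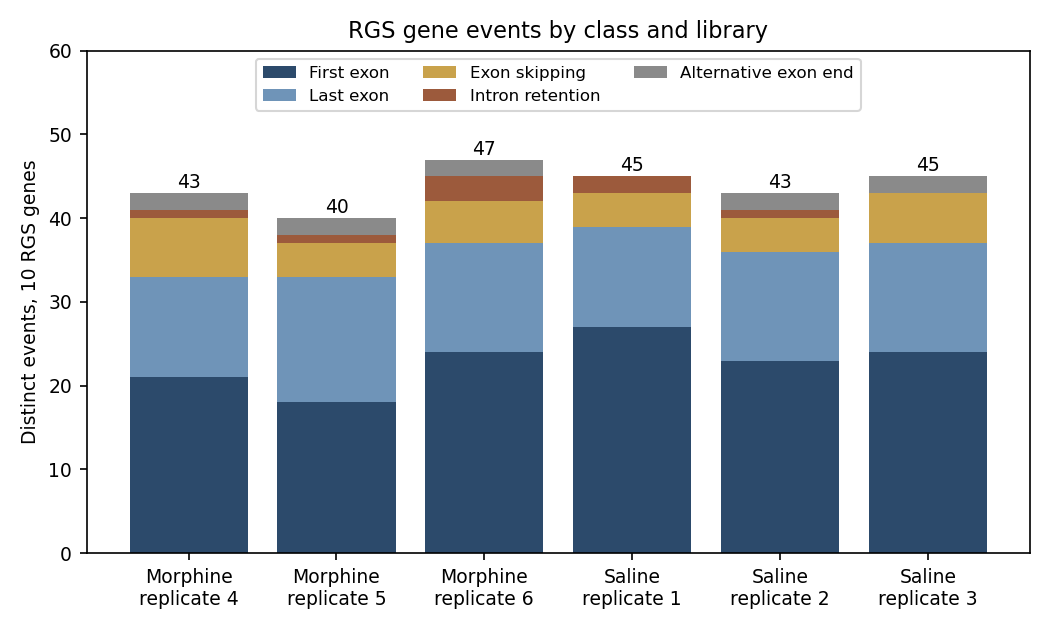
Distinct events of the 10 RGS genes per library (vertical axis), stacked by class, with the 3 morphine libraries left of the 3 saline libraries. Totals run between 40 and 47 in morphine and between 43 and 45 in saline, and first and last exons make up most of each bar.

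Among genes that work with the RGS proteins, most had overlapping groups. Of 5 tested R7 partners 1 was higher in morphine without overlap, 0 were lower and 0 were called, with a median log2 ratio of 0. That gene was Rgs11, the remaining R7 paralog, with 22, 51 and 24 events in morphine, against 15, 15 and 15 in saline (log2 ratio 0.98, SE 0.36, limma adjusted p = 0.905, exact permutation p = 0.1, n = 3 per group). Retained introns, 36 of its 76 distinct events, numbered 8, 23 and 10 in morphine and 5, 4 and 8 in saline, and all 6 libraries shared 4 of the 76. Gpr179, a receptor that binds R7 proteins, had 2, 2 and 0 events in morphine and 2, 2 and 2 in saline. Of the 7 tested other RGS genes, Rgs11 was again the 1 that did not overlap. Rgs20, a regulator of Gz and Gi, had 4, 6 and 6 events in morphine and 4, 3 and 5 in saline. None of 14 other genes with an RGS domain was apart, Arhgef1 (log2 ratio 0.47) and Axin1, a Wnt pathway scaffold (-0.43), included.

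None of the 7 tested alpha subunits on which RGS proteins act was apart, and Gnaq (log2 ratio 0.16) and Gnai3 (-0.16) were the furthest from 0. Of the 2 stimulatory subunits, Gnas had 14, 12 and 11 events in morphine, against 10, 10 and 8 in saline, without overlap (log2 ratio 0.38, exact permutation p = 0.1, n = 3 per group). It was not called (limma adjusted p = 0.905), and its retained introns numbered 3, 1 and 1 in morphine and 0, 0 and 0 in saline. Gnal, the striatal form, had 3 in all 6 libraries. None of 16 receptors was apart. Drd2, the dopamine D2 receptor, had 3, 2 and 3 events in morphine and 4, 4 and 3 in saline (-0.40), and Grm5, a Gq-coupled glutamate receptor, had 3, 3 and 3 in morphine and 3, 5 and 4 in saline (-0.34).

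Of 9 effectors 0 were higher and 1 was lower without overlap, with a median log2 ratio of -0.16. Kcnj3, a G protein-gated potassium channel subunit, had 3, 3 and 3 events in morphine, against 4, 4 and 4 in saline (log2 ratio -0.36). Limma called it, with an adjusted p of 5.15e-05 that rests on equal counts within both groups. The event that morphine libraries lacked was a first exon in saline replicates 1 and 2 and a retained intron in saline replicate 3, so no single structure of Kcnj3 separated the groups. Cacna1b, a presynaptic calcium channel subunit, had 13, 31 and 11 events in morphine and 23, 37 and 12 in saline (log2 ratio -0.39).

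The libraries listed 57981, 56546 and 56416 distinct events in morphine, against 58007, 54641 and 57132 in saline. All 12 markers of medium spiny neurons, the main striatal cell type, were listed in all 6 libraries. Markers of cortical glutamatergic neurons were listed in all 6 libraries for 4 of 6 genes. Among the other cell types, Acta2 of mural cells and Ccdc39 and Tmem72 of ependyma and choroid plexus had fewer events in morphine without overlap, and Cldn5 of endothelium was listed in no library. The 6 ependyma and choroid plexus genes together had 16, 18 and 19 events in morphine, against 22, 29 and 24 in saline. The part of this difference in the RGS values was not tested.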

How the data were processed

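The authors sequenced total RNA from the nucleus accumbens of conditioned mice, with 3 libraries per group. What they deposited for each library is a list of events of transcription and splicing, with 20 type codes, gene IDs, coordinates and splice patterns. A deposited column named fpkm holds whole numbers between -24 and 0 and was not used. The sources used here name no assembler, event caller, build or strand setting and give no depth, so no counting interval or floor was computed. Coordinates were read on GRCm38 (GENCODE M21), whose exons hold the boundaries of 63.6% of distinct events. Symbols were found for 15815 of 15939 gene IDs.

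Events were counted once per gene and library by type, pattern and strand, without codes ending in OFF, and grouped into 5 classes. No other gene's events lay at the members' loci. Events per gene were compared with limma 3.58.1 (R 4.3.3, mean-variance trend, Benjamini-Hochberg) on log2(events + 0.5) in 15040 genes with a mean of at least 0.5, so fold changes of low counts are understated. The second test per gene was an exact permutation test, two-sided. The limma step was tested on simulated Poisson counts around the gene means. Poisson counts do not hold the many equal counts of the real data. That test therefore cannot judge calls that rest on equal counts. Alternatives changed the pseudocount (0.1, 1), filter, scaling, variance model, counted events and libraries.

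All 10 members are named. In each pathway list, genes whose groups did not overlap and the 2 with the largest absolute ratio are named. The members and lists were chosen with earlier results of these data known.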

Additional observations from a re-analysis of the deposited data

How the results depend on the processing

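No RGS gene was called by limma with all libraries, and 1 of 10, Rgs9, had groups without overlap. That number was 0 with first and last exons only, with annotated events only, with exact boundaries only, without both retained introns and alternative exon ends, and when exon ends that share a boundary were counted once, the last chosen after seeing the data. Leaving out 1 library gave 1 to 3, with Rgs3 added without saline replicate 3 and Rgs3 and Rgs12 added without morphine replicate 6. The log2 ratio of Rgs9 turned to -0.40 with first and last exons only and without both retained introns and alternative exon ends, and to -0.12 with exact boundaries only. That of Rgs6 ran between -0.14 and 0.41 with 1 library left out. Of the other ratios of members, 205 neither turned sign nor crossed the threshold, among them Rgs9 at 0 with annotated events only and Rgs7 at 0 without morphine replicate 4. Rgs9 alone crossed it, without morphine replicate 4.

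The 96 genes called by limma became 44 with robust eBayes and 250 to 285 with 1 library left out. The 462 genes without overlap became 818 with equal-total scaling, 256 with first and last exons only and 961 to 1102 with 1 library left out, where fewer libraries have to differ. The 6 member events in 1 group alone became 6 to 10 with 1 library left out, 10 without saline replicate 1, and 4 with first and last exons only, with annotated events only, with exact boundaries only and without both retained introns and alternative exon ends. No paired analysis was possible because the groups share no replicate number. Read depth is unknown, so an unlisted event may be one that was too shallowly covered to be assembled.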
